A study of Mus musculus with 8 samples.

Results

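The transcripts described here are 10 markers of tubular injury in the mouse kidney, chosen by name from the 26893 genes listed: Havcr1, Lcn2, Clu, Spp1, Vcam1, Krt8, Krt18, Krt20, Sox9 and Cd44. Of these, 9 of the 10 passed the filter on low counts and were among the 15912 genes tested, and Krt20 did not pass it. Poly(A) RNA of whole kidneys from 45-day-old mice was sequenced in 4 wild-type (WT, C57BL/ 6) libraries and 4 Tsc1/Foxi1-dKO libraries (Tsc1f/f/Aqp2 Cre/Foxi1 knockout), called dKO below. The dKO line carries both deletions. The Aqp2-driven Cre deletes Tsc1 in principal cells of the collecting duct, whereas Foxi1, the transcription factor of intercalated cells, is lost throughout the animal. A single Foxi1 knockout or single Tsc1 knockout was not analysed here, so the parts of the 2 deletions cannot be told apart. The labels name a strain for WT only, so a difference in strain cannot be told apart from the deletions either. By the labels, the comparison asks how much of each injury marker the kidney holds when cells lacking Tsc1 are present but Foxi1 is not. The Foxi1 level of 1 dKO library goes against its label, as given below.

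Injured tubule cells lose their specialised transporters and switch on a small set of genes that healthy tubules express little or not at all. Havcr1 (KIM-1) and Lcn2 (NGAL) are the markers most used to detect such injury. The epithelial keratins, the secreted proteins Clu and Spp1, the adhesion molecules Vcam1 and Cd44 and the transcription factor Sox9 mark cells that are damaged, dedifferentiated or in repair. Several of them also have a place in the healthy kidney: Spp1 in the loop of Henle and distal tubule, and Krt8 and Krt18 in the collecting duct and urothelium.

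The libraries held 14791687 to 24973213 counted reads. The intercalated-cell transcripts of 3 dKO libraries were nearly gone, with a summed level over 10 such genes of 8.54 to 18.01 CPM (the normalised read count) against 375 to 455 CPM in WT, but the library labelled dKO replicate 4 held 554 CPM and Foxi1 at 45.9 CPM, above every WT library (26.6 to 33.6 CPM). The dKO replicate 1 library also stood apart, with 11083 reads of Xist against 0 to 11 in the others and 0 reads over 4 Y-linked genes against 2189 to 4380 elsewhere. It is therefore the library of a female and the others are of males. Collecting-duct principal-cell markers, summed over 10 genes, reached 2034 CPM in dKO replicate 1. They were at 899 to 1001 CPM in dKO replicates 2 to 4 and 697 to 805 CPM in WT. Proximal tubule markers, summed over 16 genes, were at 20671 CPM in dKO replicate 1, against 40022 to 44421 and 48152 to 50460 CPM. Kap alone made up 17884 to 21321 CPM of the WT sum and 2415 CPM of that in dKO replicate 1. Slc34a1, Slc22a6, Slc7a13, Slc27a2, Hnf4a, Aqp1, Acsm2, Fbp1 and Slc13a3 also lay below their WT ranges there. Among them, Acsm2 was at 1434 CPM against 5554 to 6030 in WT, and Slc7a13 at 0.354 against 750 to 955. Lrp2 (2136 against 1889 to 2831 CPM), Cubn, Slc5a12 and Miox lay within their WT ranges, and Slc5a2 and Slc22a8 above theirs. The Tsc1 level was 51.3 ± 9.82 CPM in the WT group and 52.4 ± 6.42 in the dKO group (SD, n = 4 each, log2 fold change 0.03, adjusted p = 0.951), a whole-kidney value in which principal cells are 1 cell type of many. The labels give no sex, and the Foxi1 and intercalated-cell levels of dKO replicate 4 go against its label as a Foxi1 knockout. The reason was not tested. Values without these 2 libraries are given below where a call depends on them or the difference moves by a large part of its size.

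Of the 9 markers tested, Havcr1 was the only one to pass, and it fell. Clu and Spp1 were higher in every dKO library than in any WT library but did not pass the threshold with all 8 libraries, and the remaining 6 tested markers, Lcn2, Vcam1, Krt8, Krt18, Sox9 and Cd44, had groups that overlapped. By edgeR's quasi-likelihood test, 0 of 9 members were called higher and 1 lower, where 1.16% of all tested genes were called higher and 1.12% lower. Groups without overlap were seen in 3 of the 9, against 12.1% of all tested genes. The members' log2 fold changes were positive in 6 and negative in 3, with a median of 0.47, beside a median of 0.009 and 51.7% positive over all tested genes.

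**Figure D1:**
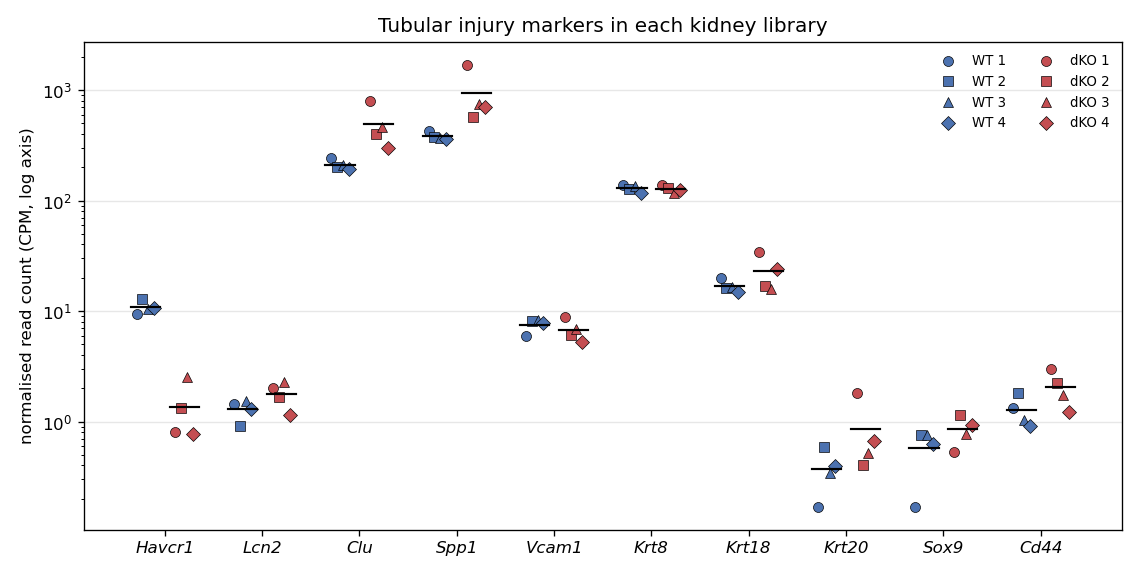
Normalised read counts (CPM, log axis) of the 10 markers in each library. Blue symbols are the 4 WT libraries, red symbols the 4 dKO libraries, symbol shapes are replicate numbers and black bars the group means. Havcr1 lies at 9.36 to 12.7 CPM in WT and at 0.771 to 2.54 CPM in dKO, while Clu and Spp1 lie higher in all 4 dKO libraries.

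Havcr1, on chromosome 11 (ENSMUSG00000040405, chr11:46735080-46779578, + strand, positions as deposited), encodes the membrane receptor KIM-1, by which proximal tubule cells bind phosphatidylserine and engulf dying neighbours. Its RefSeq promoters are shown because it was the one marker past the threshold. The GRCm38.p6 table holds 3 for this gene, each running from 250 bases before to 50 after an annotated start, and those numbered 1 and 3 are printed. Promoter 1 is chr11:46739973-46740272 and promoter 3 chr11:46750918-46751217, both on the + strand. All 3 lie inside the deposited gene and none at its deposited start. Promoter 2 held no match and is not printed. Capitals mark a match to the AP-1 letters TGANTCA, which begins 10 bases past the start site of promoter 3.
Havcr1 promoter 1: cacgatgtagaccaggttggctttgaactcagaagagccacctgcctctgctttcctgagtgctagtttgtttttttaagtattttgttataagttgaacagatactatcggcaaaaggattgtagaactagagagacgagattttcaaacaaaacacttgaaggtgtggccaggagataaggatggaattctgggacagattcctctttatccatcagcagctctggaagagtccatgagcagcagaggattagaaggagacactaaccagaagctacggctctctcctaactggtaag
Havcr1 promoter 3: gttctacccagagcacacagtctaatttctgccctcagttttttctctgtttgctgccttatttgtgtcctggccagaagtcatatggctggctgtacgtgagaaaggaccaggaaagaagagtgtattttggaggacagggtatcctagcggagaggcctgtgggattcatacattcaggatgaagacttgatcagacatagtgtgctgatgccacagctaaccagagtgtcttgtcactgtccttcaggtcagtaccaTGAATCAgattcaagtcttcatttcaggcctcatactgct

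Spp1, the most abundant marker, has 2 RefSeq promoters, and the one at the start of the deposited gene (chr5:104434861-104435160, + strand) is printed for comparison.
Spp1 promoter 1: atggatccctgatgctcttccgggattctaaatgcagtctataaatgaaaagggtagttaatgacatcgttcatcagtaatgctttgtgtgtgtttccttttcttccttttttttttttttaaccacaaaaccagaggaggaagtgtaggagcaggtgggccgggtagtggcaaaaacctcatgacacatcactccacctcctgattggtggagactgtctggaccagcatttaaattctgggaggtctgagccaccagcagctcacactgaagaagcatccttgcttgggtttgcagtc

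Of the 10 markers, 7 had an entry in the RefSeq promoter table, with 10 promoters in all, and Clu, Vcam1 and Sox9 had none. Searched on both strands, the forkhead core TGTTTAC occurred in 0 of the 10 promoters against 3.65% of 32851 promoters of the same length. The AP-1 letters occurred in 1 (7.81% of all), the STAT letters TTCNNNGAA in 0 (8.3%) and the NF-kB letters GGGNNTTCC in 0 (5.82%). The motifs do not overlap at the printed match. A match is a description of the letters in this window and not a binding site.

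In WT replicates 1 to 4, Havcr1 was at 9.36, 12.7, 10.4 and 10.6 CPM, from 168, 238, 151 and 186 reads. In dKO replicates 1 to 4 it was at 0.796, 1.33, 2.54 and 0.771 CPM, from 18, 23, 63 and 14 reads. Every dKO library lay below every WT library, the highest being replicate 3. The transcript fell by 2.96 on the log2 scale (SE 0.34, adjusted p = 0.00192 by edgeR), which is 7.76-fold lower with a 95% interval of 4.61 to 13.1. The library labelled dKO replicate 4, which kept its intercalated-cell transcripts, had the lowest Havcr1 level of the 8. Without dKO replicates 1 and 4 together the fall was 2.44 (adjusted p = 0.000393), and over all 19 alternatives it ranged from 1.85 to 3.48 and was called in each.

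Havcr1 shares sequence with Timd2 and Gm4926: 4.6% of its 50-base words were also found in 1 of them. Gm4926 had 12 reads in all 8 libraries. The T-cell immunoglobulin and mucin (TIM) family, to which Havcr1 and Timd2 belong, had 3 tested genes, of which Havcr1 alone was called. Timd2, the neighbouring family member, which was chosen after its values were seen, stood at 64.2 ± 4.38 CPM in WT (SD, n = 4) and at 9.29 CPM in dKO replicate 1, where 210 reads were counted. In dKO replicates 2 to 4 it was at 70.7, 66.8 and 65.2 CPM, so Timd2 was low in dKO replicate 1 and within or just above the WT range in the rest (log2 fold change -0.28, adjusted p = 0.857, and 0.07, adjusted p = 0.78, without dKO replicate 1). Havcr2 (TIM-3), a receptor of lymphoid and myeloid cells, held 0.559 ± 0.143 CPM in WT kidneys and 0.491 ± 0.151 in dKO kidneys, and Timd4 was at or near 0.

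Havcr1 lies 12.5 Mb from Foxi1 on the same chromosome. Of the 12 genes tested within 1 Mb of Havcr1, 0 were called, with log2 fold changes from -0.50 to 0.63 and a median of -0.11. The protein-coding genes with the pattern nearest to Havcr1 over the 8 libraries, by the root mean square difference of log2(CPM + 0.5) relative to the WT mean, were Rnf180 (0.42), Ccl28 (0.48) and Odc1 (0.50). Rnf180, a membrane ubiquitin ligase, ran from 12.6 to 14.8 CPM in the WT libraries and from 0.708 to 3.06 in the dKO libraries (log2 fold change -2.81, adjusted p = 0.00196). Ccl28, a mucosal chemokine, fell by 2.81 (adjusted p = 0.0162), a call lost without WT replicate 2 (adjusted p = 0.0542) or WT replicate 4 (adjusted p = 0.0528). Odc1, the first enzyme of polyamine synthesis, fell by 2.34 (adjusted p = 9.72e-05), with 2466 to 3344 CPM in the WT libraries and 466 to 756 in the dKO libraries. Neither Rnf180 nor Ccl28 (both chromosome 13) nor Odc1 (chromosome 12) shares the chromosome of Havcr1.

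Among receptors and bridging proteins for the uptake of dying cells, the process in which KIM-1 acts, 1 of 11 tested genes was called higher and 0 lower. Stab2 (stabilin-2), a scavenger receptor of sinusoidal endothelium, rose from 4.40, 4.44, 5.18 and 6.30 CPM in WT to 26.2, 15.02, 19.0 and 14.7 in the dKO libraries (log2 fold change 1.89, SE 0.21, adjusted p = 0.00144). Its groups were well apart, and it was called whichever single library was left out and without dKO replicates 1 and 4 together (1.75, adjusted p = 0.000308). The list's median log2 fold change was 0.27, and over all tested genes 1.16% were called higher and 1.12% lower.

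**Figure D2:**
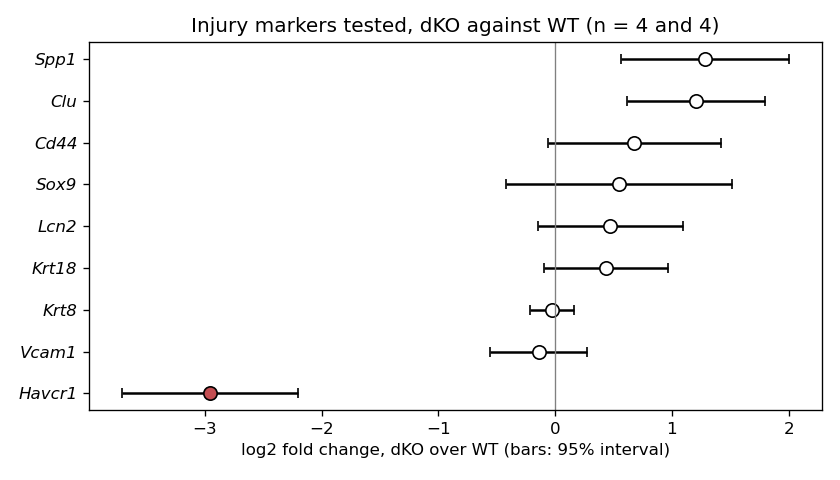
Log2 fold changes of the 9 tested markers, dKO over WT, with 95% intervals (n = 4 and 4). The filled point passed the adjusted p threshold of 0.05 and open points did not. Only the intervals of Havcr1, Clu and Spp1 leave out 0, and these are intervals before adjustment over all genes.

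Lcn2 (ENSMUSG00000026822, chr2:32384633-32388252, - strand) encodes NGAL, a secreted protein that binds bacterial iron carriers and is made by stressed distal tubule and by neutrophils. It was at 1.45, 0.909, 1.52 and 1.31 CPM in WT and at 1.99, 1.68, 2.30 and 1.16 CPM in dKO, from 17 to 57 reads a library. In dKO, 3 of 4 libraries lay above the highest WT library, and the library labelled replicate 4 lay within the WT range. The log2 fold change of 0.47 (95% interval -0.15 to 1.09) did not pass (adjusted p = 0.442), nor did it under any of 19 alternatives. Counting error alone gives a spread of 21.3% at the WT depth, about that seen between the WT libraries (21.0%). Lcn2 lies 3.69 Mb from Tsc1, and of 44 genes tested within 1 Mb of Lcn2, 0 were called. Of 8 neutrophil genes in the fixed list, 7 were among the genes listed and 1 had enough reads to be tested. That gene, Csf3r, was positive but not called (log2 fold change 0.85, adjusted p = 0.288 by edgeR). Below the filter, means were higher in dKO for S100a8 (0.0596 CPM in WT and 0.287 in dKO), S100a9 (0.0588 and 0.557) and Camp. They were lower for Ly6g, Elane and Ngp.

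Clu (ENSMUSG00000022037, chr14:65968483-65981547, + strand) encodes clusterin, a secreted chaperone that binds misfolded proteins and cell debris. It was at 240.2, 202, 210.1 and 194 CPM in WT replicates 1 to 4. In dKO replicates 1 to 4 it was at 794, 403, 459 and 298 CPM, so all 4 lay above the highest WT library and replicate 1 was far the highest. The log2 fold change was 1.21 (SE 0.26, adjusted p = 0.053), a 2.31-fold difference with a 95% interval of 1.53 to 3.48. Single dKO libraries were between 1.41-fold (the library labelled replicate 4) and 3.75-fold (replicate 1) the WT mean. The spread between dKO libraries was 43.8% of their mean, where counting error gives 0.979%.

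Spp1 (ENSMUSG00000029304, chr5:104435118-104441050, + strand) encodes osteopontin, a secreted phosphoprotein that binds integrins and CD44 and keeps crystals from growing in urine. It was the most abundant marker per length, at 232 ± 17.3 FPKM in WT (SD, n = 4). Its levels were 425, 376, 371 and 358 CPM in WT and 1700.3, 575, 746 and 702 CPM in dKO. All 4 dKO libraries again lay above WT, with replicate 1 at 4.45-fold the WT mean and the others at 1.502-fold to 1.95-fold. The log2 fold change was 1.28 (SE 0.32, adjusted p = 0.082), a 2.43-fold difference with a 95% interval of 1.48 to 4.002. In 11.6% of 50-base words Spp1 is the same as Gm42793, which overlaps it on the same strand and had 69 reads in all against 105988 of Spp1.

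The calls of Clu and Spp1 turned on which dKO libraries were used. Without dKO replicate 1, Clu was 0.87 higher on the log2 scale (adjusted p = 0.00495) and Spp1 0.82 higher (adjusted p = 0.00105), both past the threshold although the differences were smaller. In that comparison 1.88% of all tested genes were called higher and 2.02% lower. Without the library labelled dKO replicate 4, Clu passed (1.38, adjusted p = 0.0127) and Spp1 did not, among 0.969% of genes called higher and 1.14% lower. Without dKO replicate 2, Spp1 passed (1.46, adjusted p = 0.0479) and Clu did not, among 1.09% called higher and 0.956% lower. Without replicates 1 and 4 together Clu was 1.03 higher (adjusted p = 0.000308) and Spp1 0.79 higher (adjusted p = 0.00385), among 1.42% called higher and 1.76% lower. DESeq2 on all 8 libraries called both (adjusted p = 6.91e-05 and 0.0361), with 2.58% of genes called higher and 2.35% lower. Both differences kept their direction in all 19 alternatives, and Clu was called in 5 of them and Spp1 in 4.

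**Figure D3:**
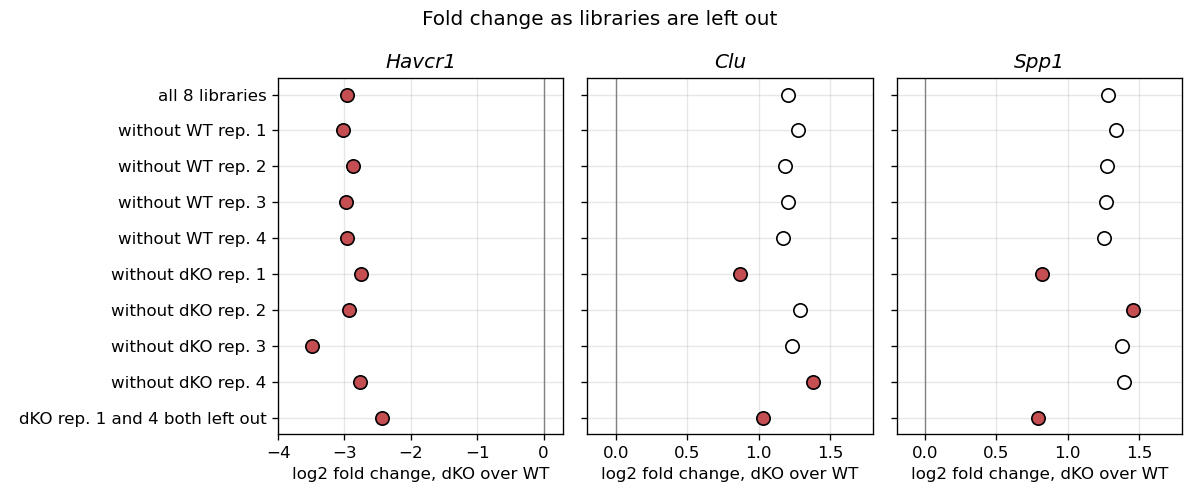
Log2 fold change (dKO over WT) of Havcr1, Clu and Spp1 with all 8 libraries and with libraries left out. Filled points passed the adjusted p threshold of 0.05. Havcr1 passed in every row, from -3.48 to -2.44, while Clu and Spp1 passed in some rows only, and their differences were lower without dKO replicate 1.

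In whole-kidney RNA, a larger share of cells that express a gene and more of its RNA per cell cannot be told apart. Beside the Clu and Spp1 values stand those of the tubule segments. The thick ascending limb markers summed to 5525 to 6217 CPM in WT and 6283 to 7511 CPM in dKO, without overlap, with 0 of 8 genes called. Among 9 tested principal-cell markers all were positive and 1 was called higher, the cortisol-inactivating enzyme Hsd11b2 (log2 fold change 0.57, adjusted p = 0.0477). Over all tested genes, 51.7% were positive and 1.16% were called higher. Without dKO replicate 1 Hsd11b2 was 0.43 higher (adjusted p = 0.014), and its call was lost without any single WT library or without dKO replicate 2 or 3 (adjusted p = 0.0659 to 0.14). The part of these shifts in the values of Clu and Spp1 was not tested. Of 16 proximal tubule markers 11 were negative and 5 positive, with a median log2 fold change of -0.17. Their sum, of which Kap was the largest part in WT, was lower in every dKO library than in any WT library. Kap itself was at 2415 to 15729 CPM in dKO and 17884 to 21321 CPM in WT. None of the 16 was called lower, and 1 was called higher, against the direction of most of the list: the organic anion transporter Slc22a8 (0.58, adjusted p = 0.018), which was not called without WT replicate 2, 3 or 4 (adjusted p = 0.0571 to 0.0704).

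The gene whose pattern was nearest to Clu was Prom1 (CD133; root mean square difference 0.16), a membrane protein of parietal epithelium and of scattered tubule cells that appear after injury. Prom1 rose from 53.4 to 61.3 CPM in WT to 168, 95.7, 105 and 81.0 in the dKO libraries (log2 fold change 0.998, SE 0.20, adjusted p = 0.0363). Its 4 dKO libraries stood in the same order as those of Clu, which follows in part from its choice by nearness to Clu. Without dKO replicate 1 Prom1 was 0.74 higher (adjusted p = 0.00159), and its call was lost without any single WT library or without dKO replicate 3 (adjusted p = 0.0688 to 0.125). Next were Cyp2d26, a cytochrome P450, and 2310007B03Rik, each at 0.18. For Spp1 the nearest were Cyp2d26 (0.11), Baat (0.18), which conjugates bile acids, and Lyplal1 (0.20), and none of these 3 passed the threshold with all 8 libraries (adjusted p = 0.0924, 0.127 and 0.064). Without dKO replicate 1, Cyp2d26 (0.74, adjusted p = 0.000192) and Lyplal1 (0.88, adjusted p = 0.011) passed and Baat did not (0.99, adjusted p = 0.104). In the parietal epithelium list, 1 other gene of 7 was called, Pax8, a transcription factor of all nephron segments, which fell by 0.35 (adjusted p = 0.0365). That call held without dKO replicate 1 (adjusted p = 0.0443) and was lost without any other single library (adjusted p = 0.0646 to 0.136).

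The receptors that take up or bind LCN2 and CLU held 4 tested genes with 0 called. Lrp2 (megalin), which reabsorbs filtered NGAL in the proximal tubule, held 2473 ± 406 CPM in WT kidneys and 2556 ± 394 in dKO kidneys (log2 fold change 0.05, adjusted p = 0.921). Slc22a17, the distal receptor of NGAL, was at 47.5 ± 1.58 and 51.0 ± 5.27 CPM (0.10, adjusted p = 0.615). Lrp8, a low-density lipoprotein receptor relative that binds clusterin, was chosen after its values were seen. It was at 0.947 to 1.45 CPM in WT and at 5.44, 1.79, 3.34 and 2.70 in the dKO libraries. The log2 fold change was 1.41 (SE 0.34, adjusted p = 0.0642), and without dKO replicate 1 it was 1.06 (adjusted p = 0.0659). Lrp8 passed without dKO replicate 2 (adjusted p = 0.0305) but not without any other single library (adjusted p = 0.0659 to 0.175). Its groups did not overlap, as was true of 12.1% of all tested genes.

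Krt8 and Krt18 encode the type II and type I keratins that pair to form the filaments of simple epithelia. Krt8 (ENSMUSG00000049382, chr15:101996698-102004482, - strand) was at 139, 127, 136 and 116 CPM in WT and at 137, 128, 118 and 125 CPM in dKO. Every dKO value lay within the WT range. The log2 fold change was -0.03 with a 95% interval of -0.21 to 0.16 (adjusted p = 0.922), and it changed sign when WT replicate 1 or dKO replicate 3 was left out (0.010 and 0.011). Krt8 shares 29.7% of its 50-base words with Krt8-ps and Gm36026, which had 44 and 5 reads in all, and Gm36026 overlaps it on the opposite strand, so its level is uncertain to the extent that reads were lost between the copies.

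Krt18 (ENSMUSG00000023043, chr15:102028180-102032027, + strand) was at 19.9, 16.1, 16.4 and 14.9 CPM in WT. Among the dKO libraries, replicate 1 held 34.5 CPM and the one labelled replicate 4 held 24.1 CPM. Replicates 2 and 3 held 16.8 and 15.8 CPM. The first pair lay above every WT library and the second pair within the WT range. The log2 fold change was 0.44 (95% interval -0.09 to 0.97, adjusted p = 0.397), without dKO replicate 1 it was 0.16 (adjusted p = 0.747), and without the first pair it was -0.05 (adjusted p = 0.966). These are the same 2 libraries that stood apart by sex and by intercalated-cell transcripts.

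Because the keratins are partners, the reads of Krt18 were set against those of Krt8 within each library. The ratio was 14.3%, 12.7%, 12.1% and 12.9% in WT and 25.1%, 13.0%, 13.4% and 19.3% in dKO. It was 0.39 higher in dKO on the log2 scale (exact permutation test, two-sided, p = 0.143, where 70 arrangements allow a smallest p of 0.0286). Without dKO replicates 1 and 4 the difference was 0.03 (exact p = 0.733).

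**Figure D4:**
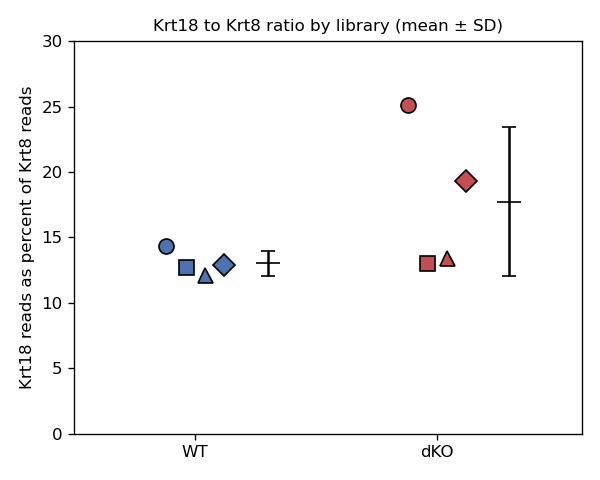
Krt18 reads as a percentage of Krt8 reads in each library, with the mean ± SD beside each group. The WT libraries lie at 12.1% to 14.3%, and dKO replicates 1 and 4 at 25.1% and 19.3% lie above the other 2 dKO libraries (13.0% and 13.4%).

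Krt20 (ENSMUSG00000035775, chr11:99428403-99438150, - strand), a keratin of the urothelial surface that appears in damaged proximal tubule, had 3, 11, 5 and 7 reads in WT and 41, 7, 13 and 12 in dKO. Against 0.167 to 0.588 CPM in WT, dKO replicate 1 was at 1.81 CPM and the library labelled replicate 4 at 0.661 CPM, both above WT, and the other 2 dKO libraries lay within the WT range. Urothelial markers, summed over 10 genes, were also highest in dKO replicate 1, at 82.5 CPM against 30.4 to 41.7 CPM in the other 7. The library labelled replicate 4 held the lowest sum, at 30.4 CPM. The part of the urothelium in the Krt20 and Krt18 values of either library was not tested. All 9 urothelial genes tested were positive and 0 were called, where 51.7% of all tested genes were positive. In the 7 alternatives whose filter kept Krt20, its log2 fold change was 0.93 to 1.40 (adjusted p = 0.238 to 0.508). Of 11 tested genes in the list of kidney keratins and their partners, 9 were positive, 2 negative and 0 called, with a median of 0.30.

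Vcam1 (ENSMUSG00000027962, chr3:116109949-116129688, - strand) encodes an endothelial and tubular adhesion molecule that holds leukocytes through their integrins and marks tubule cells that fail to repair. It was at 5.90, 8.08, 8.22 and 7.83 CPM in WT and at 8.89, 6.12, 6.93 and 5.23 CPM in dKO. The groups overlapped, and the lowest WT library, replicate 1, lay apart from the other 3. The log2 fold change was -0.14 (95% interval -0.55 to 0.27, adjusted p = 0.773), and it was -0.30 without dKO replicate 1 (adjusted p = 0.479) and -0.03 without the library labelled replicate 4 (adjusted p = 0.957).

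Cd44 (ENSMUSG00000005087, chr2:102811141-102901665, - strand) encodes the hyaluronan receptor, which also binds osteopontin. It was at 1.34, 1.82, 1.04 and 0.908 CPM in WT and at 3.01, 2.25, 1.73 and 1.21 CPM in dKO, from 15 to 68 reads. In dKO, 2 of 4 libraries lay above WT and the other 2 within its range (log2 fold change 0.68, 95% interval -0.06 to 1.42, adjusted p = 0.34). Without dKO replicate 1 the difference was 0.43 (adjusted p = 0.634). Integrins and matrix enzymes that act with osteopontin, CD44 and VCAM1 had 15 tested genes with 0 called. The most abundant, Itgb1, held 289 ± 10.7 CPM in WT kidneys and 275 ± 19.0 in dKO kidneys, and Itgb5, a subunit of an osteopontin receptor, was at 125 ± 5.53 and 152 ± 18.7 CPM (log2 fold change 0.28, adjusted p = 0.16).

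Sox9 (ENSMUSG00000000567, chr11:112782224-112787760, + strand), the transcription factor that tubule cells switch on early in repair, was at 0.167, 0.749, 0.760 and 0.624 CPM in WT and at 0.531, 1.16, 0.765 and 0.936 CPM in dKO. These values rest on 3 to 20 reads, and 3 reads correspond to 0.121 to 0.207 CPM. The groups overlapped (log2 fold change 0.55, 95% interval -0.42 to 1.52, adjusted p = 0.587). Counting error gives a spread of 32.0% in WT and 24.3% in dKO, and the spread between libraries was 48.5% and 31.2%.

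Per length, the WT order was Spp1 (232 FPKM), Krt8 (66.0), Clu (61.5), Krt18 (11.7), Havcr1 (4.65), Vcam1 (0.846), Lcn2 (0.493), Krt20 (0.194), Cd44 (0.188) and Sox9 (0.139). Among neighbours in that order, Krt8 and Clu overlapped between libraries, as did Krt20 with Cd44 and Cd44 with Sox9. In dKO, Clu (141 FPKM) stood above Krt8 (64.5) without overlap. Havcr1 (0.585 FPKM) had dropped below Vcam1 (0.761) and Lcn2 (0.675), and from Vcam1 down to Sox9 each neighbour overlapped the next.

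The dKO replicate 1 library was the highest of the 4 dKO libraries for 7 of the 10 markers, namely Clu, Spp1, Vcam1, Krt8, Krt18, Krt20 and Cd44. For 6 of these it was the highest of all 8 libraries. Over the 10 markers, the median level relative to the WT mean was 0.75 on the log2 scale in dKO replicate 1, and 0.18, 0.26 and 0.20 in replicates 2 to 4. Markers above the highest WT library numbered 7, 5, 4 and 5 in dKO replicates 1 to 4. Neither these counts nor the medians were worked out over all tested genes, so whether they are particular to the markers was not tested. The library labelled replicate 4 was the lowest of the dKO group for 5 markers. The part of sex in the values of dKO replicate 1 was not tested, since no other female library was at hand.

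**Figure D5:**
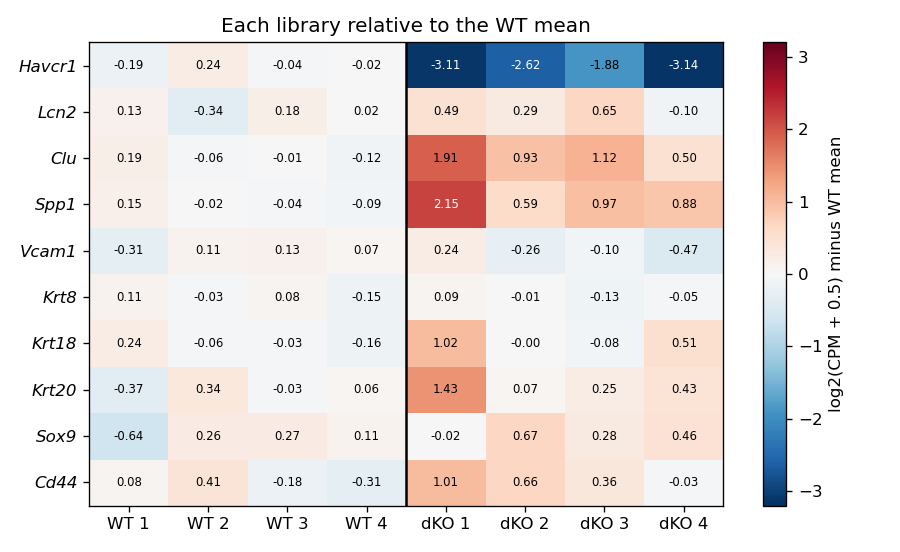
Level of each marker in each library as log2(CPM + 0.5) minus the WT mean. Red cells are above and blue cells below the WT mean, and the vertical line separates WT from dKO. The Havcr1 row is blue in all 4 dKO libraries, the Clu and Spp1 rows are red in all 4, and the dKO 1 column holds the largest values for Spp1 (2.15) and Clu (1.91).

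Other genes of injury and repair, 32 in the list and 28 tested, were positive in 21 and negative in 7, with 0 called and a median log2 fold change of 0.17. The most abundant, Igfbp7, a secreted marker of tubular stress, held 1083 ± 81.6 CPM in WT kidneys and 1389.6 ± 211 in dKO kidneys (log2 fold change 0.36, adjusted p = 0.175). S100a10, a partner of annexin A2, was at 56.8 ± 9.59 and 63.0 ± 19.4 CPM (0.15, adjusted p = 0.775). Of 14 tested genes of NF-kB signalling and inflammation, 10 were positive and 0 called, with Cx3cl1, a membrane-bound chemokine, at a mean of 83.9 CPM in WT kidneys and 82.5 in dKO kidneys. Fibrosis genes had 14 tested, 11 positive and 0 called. Immune-cell markers summed to 237 to 320.0 CPM in WT and 238 to 294 CPM in dKO, with 0 of 10 tested genes called, and endothelial markers had 9 of 9 positive and 0 called. Thin limb markers had 8 tested with 0 called. Beside the counts of these lists, 51.7% of all tested genes were positive.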

How the data were processed

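RNA selected for poly(A) tails was sequenced from whole kidneys at 45 days of age. Reads were aligned by the authors with HISAT2 2.0.4 and counted with HTSeq 0.9.1, per the submitters' processing notes. The build, not given in the sources used here, was checked by position: all 10 members lie where GRCm38 has them. Deposited are raw counts, a signal column that the authors made by dividing counts by a size factor, and FPKM values that the authors scaled by gene length and library size. Group means of the signal, and the authors' log2 fold changes and p-values, were not used. Symbols that had become dates (23) were replaced by the reference symbols of the same gene identifiers.

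Counts were tested with edgeR 4.0.16 in R 4.3.3 (filterByExpr with a minimum count of 10 and a total of 15, TMM, robust quasi-likelihood fit, two-sided), 4 WT against 4 dKO, with Benjamini-Hochberg adjustment over 15912 genes and a threshold of 0.05. CPM uses TMM-scaled totals, and levels are mean ± SD. Floors (3 reads) cover counting error only. The test was checked on simulated data. The labels do not say that each sample was a separate animal, and p-values then measure only sample spread, which may be technical. The replicate numbers follow the order of deposition and pair nothing.

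Alternatives were RLE and upper-quartile scaling, DESeq2 1.42.0, limma-voom (limma 3.58.1), 2 other filters, non-robust estimation, abundant genes left out, limma on log2 FPKM plus 1 or 0.1, and libraries left out, which for genes that are no members was chosen after seeing the data. Members and lists were chosen with earlier results of these data known. Named are all members, from each list up to 3 genes by adjusted p where any passed and otherwise up to 2 by FPKM, the 3 nearest genes in pattern, and genes called within 1 Mb of Havcr1 and Lcn2. Timd2, Lrp8 and the further proximal tubule and neutrophil genes were named outside this rule. Promoter sequences are from RefSeq GRCm38.p6.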

Additional observations from a re-analysis of the deposited data

Results flagged for a closer look

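In 20 groups of 4 libraries (10 markers in WT and in dKO), 2 had 1 library far from the other 3 by Dixon's test at its 95% critical value, where chance gives about 1 in 20. Spp1 in dKO replicate 1 was at 1700.3 CPM, and the next dKO library was at 746 CPM. Vcam1 in WT replicate 1 was at 5.90 CPM, and the other WT libraries were at 7.83 to 8.22 CPM.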

How the results depend on the processing

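The fall of Havcr1 was called under all 19 alternatives. Of all genes tested, 363 were called with all 8 libraries and 965 by DESeq2 (505 higher and 460 lower), and 138 to 628 when single libraries were left out. The lowest was without WT replicate 4 and the highest without dKO replicate 1, and the counts without WT replicates 1, 2 and 3 were 225, 143 and 141. Of the 10 members, 1 was called with all libraries, 3 by DESeq2, 2 without robust estimation (Clu, adjusted p = 0.0428), 3 without dKO replicates 1 and 4 together, and 1 to 3 when single libraries were left out. Spp1 was called without dKO replicate 2 (adjusted p = 0.0479). With single libraries left out, the Krt18 to Krt8 difference ran from 0.21 (without dKO replicate 1) to 0.52 (without dKO replicate 2) on the log2 scale, and it was 0.028 without dKO replicates 1 and 4 together. Sign changed for Krt8 without WT replicate 1 (0.010) and without dKO replicate 3 (0.011), where leaving out single libraries gave -0.074 to 0.011, and for Krt18 without dKO replicates 1 and 4 (-0.050). The cause of these changes was not tested. No paired analysis was possible because replicate numbers follow the order of deposition and name no shared animal or batch. The least deeply counted members were Krt20, Sox9, Lcn2 and Cd44, which rest on 3 to 68 reads a library.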
